A study of Mus musculus with 6 samples.

Results

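Pericyte marker genes were examined in RNA sequencing of cerebral microvessels from WT and TEKCRIF1 KO mice. The 10 members, *Pdgfrb*, *Rgs5*, *Kcnj8*, *Abcc9*, *Cspg4*, *Anpep*, *Vtn*, *Mcam*, *Atp13a5* and *Higd1b*, were chosen by gene symbol from the 23183 symbols listed for every library, and all 10 were found. TEKCRIF1 KO mice carry TEK-cre and floxed *Crif1* (*Gadd45gip1*) alleles, and WT mice carry the same TEK-cre with intact *Crif1*, both on a C57BL/6 background and without treatment. Each group held 3 mice with 1 library per mouse, and the age of these mice is not given in the sources used here. The *Tek* promoter drives Cre in endothelial cells and is also known to be active in blood cell lineages, and it is not known as a driver of recombination in pericytes.

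Pericytes are mural cells that sit within the basement membrane of capillaries and share it with the endothelium. Endothelial cells secrete the growth factor PDGF-B, which binds the receptor PDGFRβ on pericytes and keeps them attached to the vessel, and brain capillaries with too few pericytes have a leaky blood-brain barrier. No single gene marks pericytes alone. *Pdgfrb*, *Cspg4*, *Anpep* and *Mcam* encode surface proteins that are also found on other cells, whereas *Kcnj8*, *Abcc9*, *Atp13a5*, *Higd1b*, *Vtn* and *Rgs5* are more restricted to mural cells within the brain.

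Expression was given as FPKM, a fragment count divided by transcript length and by the size of the library, so that levels can be compared between genes. Values of single libraries are given below in the order of mouse 1, mouse 2 and mouse 3 of each group. The deposited values carry no counts, and depth was estimated from the spacing of the smallest values at 6500000 to 11800000 fragments per library, lowest in KO 2. At these depths the members rested on about 99.5 fragments (*Higd1b* in KO 2) to 19900 fragments (*Vtn* in WT 1). *Gadd45gip1* had 18.8, 15.3 and 16.5 FPKM in the WT libraries but 10.8, 7.54 and 10.4 FPKM in the KO libraries, which did not overlap. The libraries were uneven in other respects. The summed FPKM of 4 choroid plexus genes was 8800 and 10500 in KO 1 and KO 3 against 2840 to 3320 in the WT libraries and 2940 in KO 2. Relative to the mean of the libraries, long transcripts ran low in KO 1 and high in KO 2 (Spearman correlations across 13726 genes of −0.296 and 0.289, given as a description). The correlation with GC content was 0.084, 0.313 and 0.151 in the WT libraries and −0.137, −0.247 and −0.028 in the KO libraries, so that GC-rich transcripts ran higher in every WT than in any KO library.

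All members were expressed in every library, in an order that was stable at its ends. *Vtn*, which encodes the secreted adhesive glycoprotein vitronectin, had the highest level with a mean of 705 FPKM over the 6 libraries, above 99.5% of the 14247 genes tested, those averaging 1 FPKM or more. *Rgs5*, a regulator of G-protein signaling in mural cells, followed with a mean of 172 FPKM. These levels were 4.09-fold apart, and *Rgs5* in turn stood 4.23-fold above *Mcam*, with the order kept in 6 of 6 libraries each time. *Mcam* (40.8 FPKM) and *Pdgfrb* (37.4 FPKM) were not separated, the first being higher in 4 of 6 libraries. *Anpep* (25.7 FPKM), *Higd1b* (25.4 FPKM), *Atp13a5* (19.4 FPKM) and *Kcnj8* (17.9 FPKM) came next, and each neighbouring pair among them kept its order in 4 of 6 libraries. *Cspg4* (12.03 FPKM) and *Abcc9* (6.43 FPKM) had the lowest levels, and *Abcc9* lay above 37.4% of the genes tested.

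**Figure D1:**
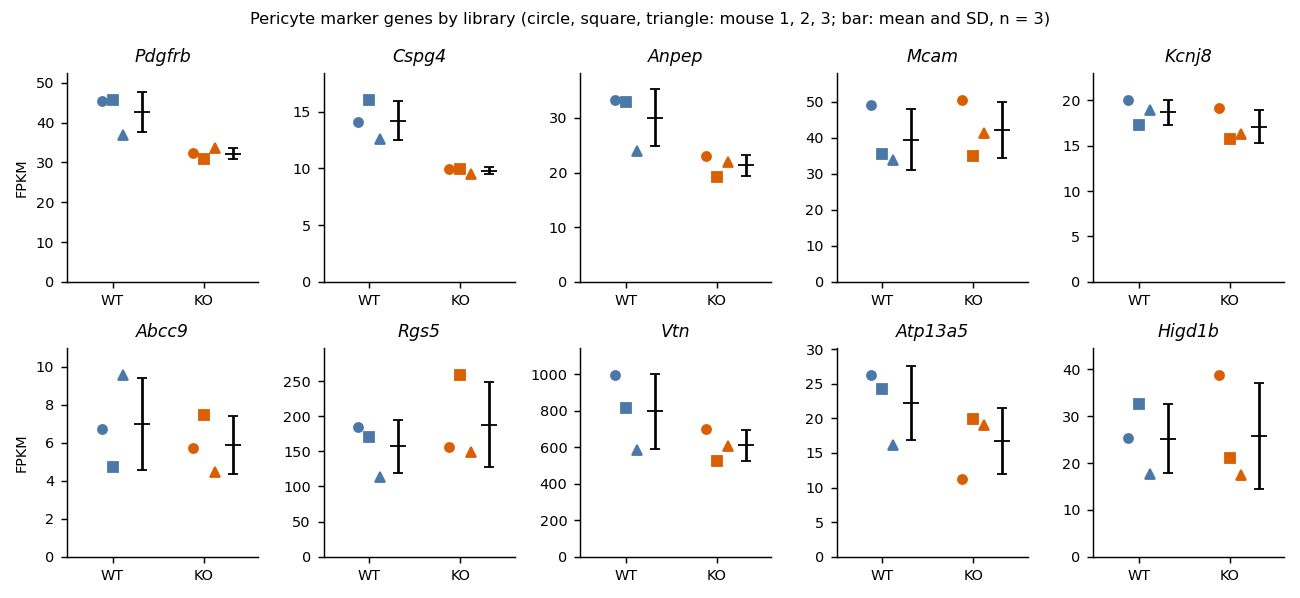
FPKM of each pericyte marker gene in the 3 WT libraries (blue) and 3 KO libraries (orange), with the mouse number given by the symbol and the mean and SD by the black bar. All 3 KO values lie below all 3 WT values for *Pdgfrb*, *Cspg4* and *Anpep*, and the groups overlap for the other 7 genes.

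Among the surface proteins, *Pdgfrb*, *Cspg4* and *Anpep* had lower levels in each KO mouse than in any WT mouse. *Pdgfrb*, the receptor for PDGF-B, lies at chr18:61045150-61085061 (mm10) and had 45.5, 45.6 and 36.9 FPKM in the WT libraries and 32.3, 30.8 and 33.6 FPKM in the KO libraries. The KO values were close together, with a 1.09-fold span, and WT 3 was the nearest of the WT libraries to them. The KO mean of 32.2 ± 1.40 FPKM was 24.5% below the WT mean of 42.7 ± 4.95 FPKM (SD, n = 3 each). On log2(FPKM + 1), the scale used for every fold change here, KO minus WT was −0.39 (standard error 0.19; exact permutation p = 0.1, limma adjusted p = 0.841 over the 14247 genes tested).

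*Cspg4*, which encodes the proteoglycan NG2 of pericytes and of oligodendrocyte precursors, lies at chr9:56865033-56899870. It had 14.1, 16.0 and 12.6 FPKM in the WT libraries and 9.99, 9.94 and 9.49 FPKM in the KO libraries. The KO libraries spanned only 1.05-fold, the narrowest range of any member in either group. The KO mean of 9.81 ± 0.276 FPKM was 31.2% below the WT mean of 14.2 ± 1.71 FPKM (SD, n = 3 each). The log2 fold change of −0.49 (95% interval −0.94 to −0.05) was the most negative among the members (exact permutation p = 0.1, limma adjusted p = 0.841).

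*Anpep* encodes aminopeptidase N (CD13), an ectoenzyme of pericytes that is also found on fibroblasts and myeloid cells, and lies at chr7:79821803-79861059. It had 33.2, 32.9 and 24.0 FPKM in the WT libraries and 23.0, 19.1 and 21.9 FPKM in the KO libraries. WT 3 and KO 1 were only slightly apart, so the separation of the groups rested on a small gap. The log2 fold change was −0.46 (95% interval −0.92 to −0.0049; exact permutation p = 0.1, limma adjusted p = 0.841). For each of these 3 genes the exact permutation p (two-sided) of 0.1 was the smallest that 3 mice against 3 allow. In RNA from whole microvessels, fewer pericytes and less RNA per pericyte cannot be told apart.

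*Mcam*, the melanoma cell adhesion molecule CD146 of endothelial, smooth muscle and pericyte membranes, did not follow the other surface proteins. It had 49.1, 35.4 and 33.7 FPKM in the WT libraries and 50.3, 34.8 and 41.4 FPKM in the KO libraries. The highest 2 values came from one library of each group, and the groups overlapped throughout (log2 fold change 0.10, 95% interval −0.40 to 0.60; exact permutation p = 0.6, limma adjusted p = 0.963). The same libraries had the most smooth muscle RNA. The summed FPKM of 8 smooth muscle markers, *Acta2*, *Tagln* and *Myh11* among them, was 907 in WT 1 and 1100 in KO 1, 622 in KO 3, and 412, 435 and 431 in WT 2, WT 3 and KO 2. The part of smooth muscle RNA in the *Mcam* level was not tested.

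**Figure D2:**
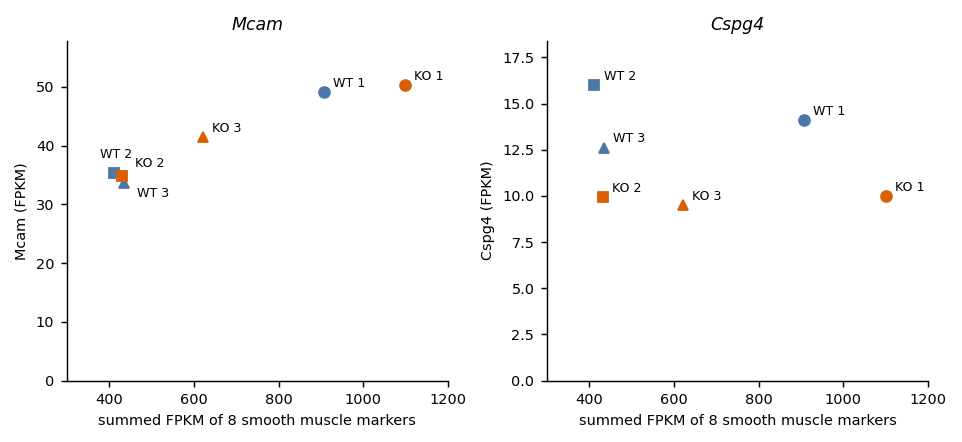
*Mcam* (left) and *Cspg4* (right) in FPKM against the summed FPKM of 8 smooth muscle markers in each library, WT in blue and KO in orange. *Mcam* is at 33.7 to 35.4 FPKM in the 3 libraries with sums of 412 to 435 and at 49.1 and 50.3 FPKM in those with 907 and 1100, whereas *Cspg4* is at 9.99 FPKM in KO 1 and 9.94 FPKM in KO 2 despite their different sums.

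The sequence before the start site is shown for *Anpep* and *Cspg4*, the members at an unadjusted p under 0.05, and for *Vtn*, the most abundant member. Each is the 250 bases upstream of the RefSeq start on GRCm38.p6. They lie at chr7:79848211-79848460 on the minus strand, chr9:56864854-56865103 on the plus strand and chr11:78498870-78499119 on the plus strand. The *Anpep* stretch lies within the gene coordinates given above (chr7:79821803-79861059), so it precedes a start inside the annotated gene. Which start was used in these vessels was not tested. Capitals in *Vtn* mark the string TATAAA and its reverse complement, which overlap, at offsets of −135 and −137 from the start.
Anpep: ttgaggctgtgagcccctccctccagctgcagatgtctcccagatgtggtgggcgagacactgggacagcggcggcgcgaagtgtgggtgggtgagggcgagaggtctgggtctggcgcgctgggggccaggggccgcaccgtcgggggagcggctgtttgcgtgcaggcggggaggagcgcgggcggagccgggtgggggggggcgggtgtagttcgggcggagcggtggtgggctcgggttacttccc
Cspg4: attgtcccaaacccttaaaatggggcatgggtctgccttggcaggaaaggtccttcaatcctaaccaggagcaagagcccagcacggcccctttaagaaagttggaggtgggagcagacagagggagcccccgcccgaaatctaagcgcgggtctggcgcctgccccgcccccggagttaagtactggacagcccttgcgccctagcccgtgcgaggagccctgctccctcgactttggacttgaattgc
Vtn: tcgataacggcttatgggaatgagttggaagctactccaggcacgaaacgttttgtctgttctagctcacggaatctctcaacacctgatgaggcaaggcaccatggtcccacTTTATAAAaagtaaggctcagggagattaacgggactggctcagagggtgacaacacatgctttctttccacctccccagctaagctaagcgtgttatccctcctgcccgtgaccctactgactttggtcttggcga
The *Anpep* stretch had 72.8% G and C, *Cspg4* 60.4% and *Vtn* 50.4%. RefSeq windows of 300 bases (250 before to 50 after the start) were found for 8 of the 10 members, *Pdgfrb* and *Higd1b* being the others. A CArG box, the element bound by serum response factor in muscle genes, was in 0 of the 8 windows and in 1.63% of all 32851 windows. The motifs GTGGGAA (RBPJ), GTAAACA (forkhead) and CACGTG (E-box), searched on both strands, were also in 0 of the 8, against 6.38%, 3.65% and 7.15% of all windows. TATAAA was in the window of *Vtn* alone and in 13.6% of all windows.

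*Kcnj8* and *Abcc9* encode the pore (Kir6.1) and the sulfonylurea receptor (SUR2) of the ATP-sensitive potassium channel of mural cells, which couples metabolism to membrane potential. The genes are neighbours on chromosome 6, at chr6:142564837-142571614 and chr6:142587862-142702315, on the same strand and 16247 bases apart. *Kcnj8* had 19.99, 17.3 and 19.0 FPKM in the WT and 19.2, 15.8 and 16.3 FPKM in the KO libraries, a 1.26-fold span that was the narrowest over all 6 libraries among the members. *Abcc9* varied far more, with 6.71, 4.70 and 9.54 FPKM in the WT and 5.73, 7.48 and 4.44 FPKM in the KO libraries, a 2.15-fold span. The groups overlapped for both, with log2 fold changes of −0.13 for *Kcnj8* (95% interval −0.56 to 0.30; exact permutation p = 0.3, limma adjusted p = 0.949) and −0.19 for *Abcc9* (95% interval −0.84 to 0.46; exact permutation p = 0.6, limma adjusted p = 0.949). The level of *Kcnj8* over that of *Abcc9* ranged from 1.99 in WT 3 and 2.11 in KO 2 to 3.67 in WT 2 and KO 3, so the subunits did not vary in parallel. The *Kcnj8* fold change was −0.21 without KO 1, −0.08 without KO 2 and −0.02 with scaling to the endothelial markers, and the *Abcc9* fold change turned to 0.03 without WT 3. The related subunits *Kcnj11* (Kir6.2) and *Abcc8* (SUR1) averaged 4.11 ± 0.633 and 2.21 ± 0.771 FPKM in the WT group, with 2.85 ± 0.679 and 1.90 ± 0.977 FPKM in the KO group (SD, n = 3 each). *Kcnj11*, named after its values were seen, did not overlap between the groups, although WT 1 and KO 3 were equal at 3.42 FPKM to the digits given (exact permutation p = 0.1, limma adjusted p = 0.849).

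*Vtn* and *Rgs5* were the members with the largest differences in FPKM, and neither separated the groups. *Vtn* had 995, 815 and 586 FPKM in the WT and 699, 527 and 608 FPKM in the KO libraries. The level in WT 3 lay among those of the KO mice, and the log2 fold change was −0.36 (95% interval −1.002 to 0.28; exact permutation p = 0.3, limma adjusted p = 0.882), with −0.19 without WT 1 and −0.57 without WT 3. *Rgs5* had 185, 171 and 114 FPKM in the WT and 156, 258 and 149 FPKM in the KO libraries. KO 2 had the highest and WT 3 the lowest value, and the log2 fold change of 0.24 (95% interval −0.38 to 0.87; exact permutation p = 0.6, limma adjusted p = 0.930) became −0.006 without KO 2. *Vtn* made up 66.0% to 71.1% of the summed FPKM of the 10 members in the other 5 libraries but 55.9% in KO 2, where *Rgs5* made up 27.3% against 13.1% to 16.2% elsewhere.

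*Atp13a5* and *Higd1b*, a P5-type transport ATPase and a protein of the hypoxia-inducible domain family, are among the members more restricted to mural cells within the brain. *Atp13a5* had 26.2, 24.3 and 16.1 FPKM in the WT and 11.2, 19.9 and 19.0 FPKM in the KO libraries. Its log2 fold change of −0.40 (95% interval −1.01 to 0.21; exact permutation p = 0.3, limma adjusted p = 0.851) moved to −0.15 without KO 1, the library with the lowest value. *Higd1b* had 25.3, 32.5 and 17.7 FPKM in the WT and 38.7, 21.0 and 17.5 FPKM in the KO libraries. KO 1 was highest. The transcript of *Higd1b* is the shortest among the members (735 bases), short transcripts ran high in KO 1, and the part of length in the KO 1 value was not tested. The log2 fold change of −0.01 (95% interval −0.71 to 0.69; exact permutation p = 0.9, limma adjusted p = 0.998) was −0.13 with each library corrected for transcript length, −0.33 without KO 1 and 0.21 without KO 3. In KO 1, *Higd1b* was 0.65 above and *Atp13a5* 0.69 below its own mean on the log2 scale, so genes with like cell specificity within the brain stood at opposite ends of a single library.

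**Figure D3:**
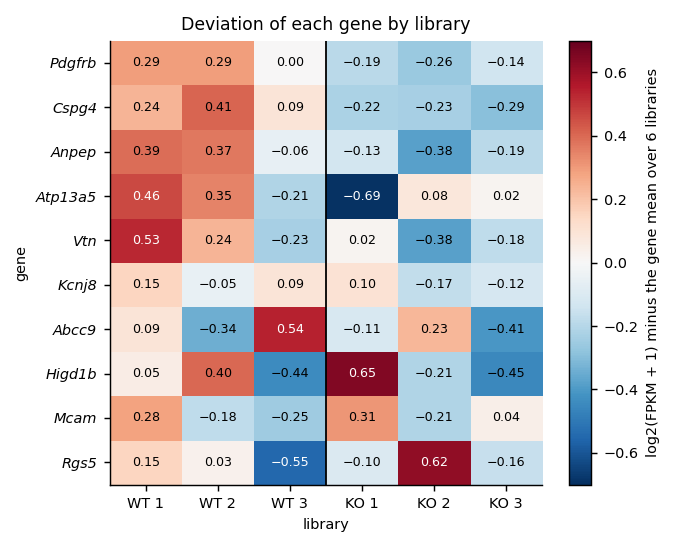
Deviation of each gene in each library from its own mean over the 6 libraries, on log2(FPKM + 1), with red above and blue below the mean. WT 1 is above the mean for all 10 genes, and the upper rows (*Pdgfrb*, *Cspg4*, *Anpep*) run from red or near 0 in WT to blue in KO, while *Higd1b*, *Mcam* and *Rgs5* do not.

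The members lay on one side of their own mean most often in WT 1 and KO 3. WT 1 was above the gene's mean for 10 of 10 members, with a median deviation of 0.26 on the log2 scale, and WT 2 for 7 of 10, with a median of 0.27. WT 3 resembled the KO libraries in this respect, with 7 of 10 members below their mean and a median of −0.14. The KO libraries had medians of −0.10, −0.21 and −0.17, with 6, 7 and 8 of 10 members below the mean. No library held the highest value of most members, since WT 1 held 4, WT 2 and KO 1 held 2 each, and WT 3 and KO 2 held 1 each.

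Over the 10 members, KO mice were compared with WT mice in a limma fit over all 14247 genes tested. A negative log2 fold change was found for 8 of 10 members, against 50.8% of all genes tested, and the median was −0.28 against −0.01. Every KO value lay below every WT value for 3 of 10 members (*Pdgfrb*, *Cspg4* and *Anpep*), against 5.70% of all genes tested, and above it for 0 of 10, against 5.37%. With the limma p left unadjusted, 2 of 10 members passed 0.05 with lower values in KO mice (*Cspg4* and *Anpep*), against 3.11% of all genes tested, and 0 of 10 had a higher value at this level, against 2.77%. After adjustment over all genes, 0 of 10 members had a limma p under 0.05, against 0.00% of all genes tested. The count of 2 was reduced to 0 without WT 1, WT 2, KO 1 or KO 3, where 2.45%, 1.42%, 2.15% and 3.44% of all genes tested were lower at this level, and to 1 (*Cspg4*) without KO 2, where 5.83% were. In these fits, which have fewer samples, the log2 fold change of *Cspg4* was −0.50 to −0.41 and that of *Anpep* −0.52 to −0.39. The count was also 0 once the trend of each library on transcript GC content was removed, where 2.19% of all genes tested were lower at this level. *Cspg4*, the member of highest GC content (59.2%), was then at −0.32 and *Anpep* at −0.40. *Pdgfrb*, *Cspg4* and *Anpep* kept every KO value below every WT value under that correction, as did 5.14% of all genes.

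**Figure D4:**
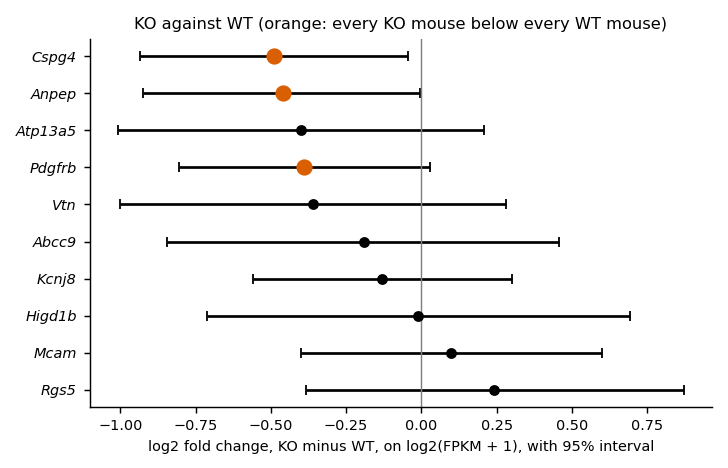
Log2 fold change of each member, KO minus WT, on log2(FPKM + 1), with the 95% interval of the limma fit and orange points for genes whose KO values all lie below the WT values. Intervals that leave out 0 are those of *Cspg4* (−0.94 to −0.05) and *Anpep* (−0.92 to −0.0049), and the widest intervals belong to *Higd1b*, *Abcc9* and *Vtn*.

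The level of pericyte genes was also read against that of the endothelium. The mean log2 level of 10 endothelial markers, among them *Pecam1*, *Cldn5* and *Cdh5*, was 6.19, 6.13 and 5.88 in the WT libraries and 6.07, 5.75 and 6.05 in the KO libraries. The mean log2 level of the 10 members minus this value was nearly the same in the WT libraries, at −0.74, −0.79 and −0.79, although the mean of the members itself ranged from 5.09 to 5.45. The KO libraries had −0.92, −0.65 and −1.05, so KO 2 lay above and the other KO libraries below the WT libraries. For *Pdgfrb*, *Cspg4* and *Anpep* alone, a trio picked after their values were seen, it was −1.34, −1.23 and −1.32 in WT and −1.71, −1.49 and −1.71 in KO libraries. Most of the group difference in this reference came from a single gene. *Cdh5*, which encodes VE-cadherin of endothelial junctions, had 86.7, 92.4 and 91.3 FPKM in the WT libraries and 50.8, 42.5 and 38.1 FPKM in the KO libraries (log2 fold change −1.03, standard error 0.19; exact permutation p = 0.1, limma adjusted p = 0.841). The KO minus WT difference in the mean of the endothelial markers was −0.11 with *Cdh5* and −0.01 without it. Against the other 9 markers the members were at −0.71, −0.75 and −0.72 in the WT libraries and −0.96, −0.69 and −1.14 in the KO libraries, and the trio at −1.31, −1.18 and −1.25 and at −1.75, −1.53 and −1.79. Scaling each library to all 10 endothelial markers moved the median log2 fold change of all genes to 0.10 and that of the members to −0.17, and it left 0 members at an unadjusted limma p under 0.05. Under that scaling 622 of all genes tested were higher and 158 lower at this level, against 395 and 443 without it. Scaling to the 9 markers without *Cdh5*, added after the data were seen, gave 329 and 294, a median of −0.27 for the members and 1 member (*Anpep*) at this level.

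Other cells that carry the surface markers were measured by marker lists. The summed FPKM of 7 fibroblast markers was 1580 to 2450 in WT and 1090 to 1520 in KO libraries, with 7 of 7 genes lower, against 50.8% of all genes tested. Every KO value lay below every WT value for 2 of 7, *Col1a1* and *Col1a2*, against 5.70% of all genes tested (each with exact permutation p = 0.1, limma adjusted p = 0.841). The sum of 5 oligodendrocyte precursor markers, cells that also express *Cspg4*, was 67.1 to 71.2 in WT and 50.7 to 55.5 in KO libraries. The largest of these, *Pdgfra*, is also in the fibroblast list, and without it the sums overlapped, at 37.0, 45.1 and 52.4 in the WT and 34.2, 39.4 and 28.3 in the KO libraries. The sum of 6 microglia and macrophage markers was 96.3 to 116 in WT and 78.3 to 88.3 in KO libraries, and that of 6 astrocyte markers was 575 to 671 and 431 to 477. These 4 sums, 2 of which share *Pdgfra*, did not overlap between the groups, in the same direction as *Pdgfrb*, *Cspg4* and *Anpep*. With 1 gene left out at a time, the astrocyte sums stayed apart in 6 of 6 cases, whereas the fibroblast sums overlapped without *Col1a1*, the precursor sums without *Pdgfra* and the microglia and macrophage sums without *Aif1*. Single genes could differ from their sum, such as the microglial receptor gene *P2ry12*, picked after its values were seen, with 7.70 ± 2.53 FPKM in WT and 11.6 ± 4.33 FPKM in KO mice (SD). The sums of the 10 members (870 to 1400 in WT and 921 to 1050 in KO libraries), of the endothelial markers (949 to 1250 and 851 to 1140), and of the smooth muscle, oligodendrocyte, neuron, choroid plexus and erythroid markers overlapped. No marker in the fibroblast, precursor, macrophage or astrocyte lists was at 0 in a library. At an unadjusted limma p under 0.05 were 1 of 10 endothelial, 1 of 7 fibroblast, 2 of 6 astrocyte and 2 of 5 oligodendrocyte markers. The neuron list had 1 of 6, choroid plexus 1 of 4, erythroid 1 of 4, smooth muscle 0 of 8, precursor 0 of 5 and microglia and macrophage 0 of 6. Of all genes tested 5.88% were at this level. Beside *Cdh5* and *Col1a1*, these marker genes of other cells were *Gfap*, *Gja1*, *Mag*, *Cnp* and *Slc17a7*, with lower values in KO mice, *Kl*, with higher values, and *Hbb-bs*. The last is listed at 0 in WT 1 and in all KO libraries, at 126 FPKM in WT 2 and at 10.6 FPKM in WT 3, while *Hba-a1* has 1080 to 2210 FPKM in every library, so no direction is read from it. The part of these cells in the lower *Pdgfrb*, *Cspg4* and *Anpep* levels was not tested.

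**Figure D5:**
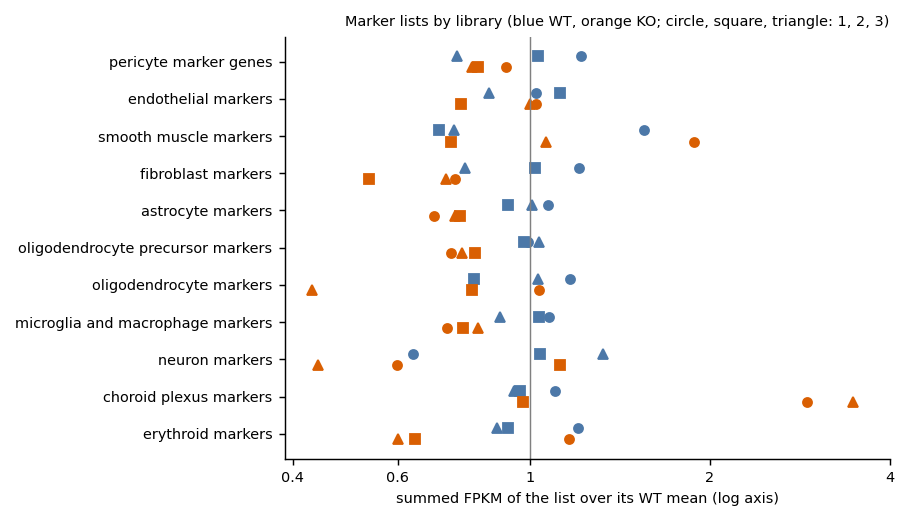
Summed FPKM of the pericyte marker genes and of each list of cell type markers in every library, divided by the mean of the WT libraries, on a log axis. The KO libraries (orange) lie below the WT libraries (blue) for the fibroblast, astrocyte, oligodendrocyte precursor and microglia and macrophage markers, and the groups overlap for the other lists.

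A further list of 22 genes known from pericytes and other mural cells did not show a common shift. All 22 were tested, 14 were lower and 8 higher in KO mice, and the median log2 fold change was −0.05. At an unadjusted limma p under 0.05 there were 2 of 22, both lower, against 3.11% of all genes tested in that direction, and 0 of 22 passed adjustment. *Ifitm1*, an interferon-induced membrane protein, had 43.9, 31.3 and 32.1 FPKM in the WT and 26.2, 20.8 and 21.4 FPKM in the KO libraries (log2 fold change −0.62, standard error 0.21; exact permutation p = 0.1, limma adjusted p = 0.841). *Cd248*, the surface protein endosialin of pericytes and fibroblasts, had 87.4, 103 and 67.4 FPKM in the WT and 74.6, 41.8 and 55.8 FPKM in the KO libraries, and its groups overlapped (exact permutation p = 0.2, limma adjusted p = 0.841). *Notch3*, the Notch receptor of mural cells, was named after its values were seen. It had 27.1, 28.9 and 26.9 FPKM in the WT and 24.2, 23.5 and 23.4 FPKM in the KO libraries, with no overlap but a small log2 fold change of −0.21 (exact permutation p = 0.1, limma adjusted p = 0.890). Over the whole list the log2 fold changes ranged from −0.70 (*Slc6a20a*) to 0.64 (*Ggt1*). Examples near 0, both chosen after their values were seen, were *Ndufa4l2* with 31.5 ± 5.03 and 31.7 ± 6.17 FPKM (95% interval of the log2 fold change −0.48 to 0.49) and *Art3* with 6.85 ± 0.327 and 6.79 ± 1.32 FPKM (−0.53 to 0.49; WT and KO, SD, n = 3 each). The remaining genes of highest level were *Slc6a20a*, with 86.4 ± 40.3 and 48.9 ± 7.23 FPKM, and *Zic1*, with 45.7 ± 10.6 and 42.2 ± 3.29 FPKM.

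Ligands and receptors by which endothelium and pericytes signal to each other were described with a list of 20 genes. Of these, 11 were lower and 9 higher in KO mice, with a median log2 fold change of −0.11, and 1 of 20 had an unadjusted limma p under 0.05, a share near the 5.88% of all genes tested, while 0 of 20 passed adjustment. *Pdgfb*, the endothelial ligand of PDGFRβ, was lower in each KO mouse than in any WT mouse, like its receptor, and is named here after its values were seen. It had 29.6, 30.2 and 29.5 FPKM in the WT and 25.7, 25.3 and 19.6 FPKM in the KO libraries (log2 fold change −0.34, standard error 0.19; exact permutation p = 0.1, limma adjusted p = 0.841). The other PDGF ligands did not share this pattern, since *Pdgfa* had 53.4 ± 9.58 FPKM in the WT and 60.0 ± 2.57 FPKM in the KO group, *Pdgfc* 6.46 ± 0.653 and 8.84 ± 2.85 FPKM, and *Pdgfd* 10.7 ± 2.29 and 10.6 ± 0.781 FPKM (SD, n = 3 each). *Tgfb2*, a ligand in mural cell differentiation, was the gene at an unadjusted p under 0.05, with 14.5, 15.8 and 19.9 FPKM in the WT and 27.5, 20.8 and 35.9 FPKM in the KO libraries (log2 fold change 0.69, standard error 0.24; exact permutation p = 0.1, limma adjusted p = 0.841). The co-receptor gene *Tgfbr3*, named after its values were seen, had 26.0 ± 3.02 and 20.5 ± 2.57 FPKM, with every KO value below the WT values. *Nrp1*, a co-receptor for VEGF and semaphorins, had 65.0 ± 2.93 and 82.6 ± 4.33 FPKM, with every KO value above. *Eng*, the endothelial TGF-β co-receptor endoglin, had the highest level of the list with 130 ± 9.65 and 101 ± 26.8 FPKM, and its groups overlapped. *Tek* itself had 40.3 ± 4.72 FPKM in WT and 37.3 ± 4.66 FPKM in KO mice (SD; exact permutation p = 0.5, limma adjusted p = 0.958). The angiopoietins *Angpt1*, made by mural cells, and *Angpt2*, made by endothelium, overlapped between the groups, with log2 fold changes of −0.12 (95% interval −0.76 to 0.51) and −0.28 (95% interval −0.76 to 0.19). *Tek*, *Pdgfc*, *Pdgfd* and the angiopoietins were chosen after their values were seen.

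The genes whose levels followed the median deviation of the members most closely over the 6 libraries were *Efemp1*, *Hlf*, *Lamtor3*, *Plec* and *Mpp6*, with Pearson correlations of 0.999, 0.992, 0.992, 0.984 and 0.983. They were the highest of 9853 genes averaging 5 FPKM or more outside the lists, and since every gene is read from the same 6 libraries, which differ in depth and composition, these values are a description only.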

How the data were processed

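Cerebral microvessels of 3 WT and 3 TEKCRIF1 KO mice were isolated by dextran centrifugation and a cell strainer, and TRIzol RNA was sequenced from NEBNext Ultra II Directional libraries as paired ends. The authors trimmed reads with FASTX_Trimmer and BBMap, mapped them with TopHat to mm10 (per the labels) and deposited FPKM values, 1 per gene symbol and library. The counting tool and any normalization between libraries are not given in the sources used here. The test named in the study needs read counts, so limma 3.58.1 (R 4.3.3) was run on log2(FPKM + 1) for the 14247 genes averaging 1 FPKM or more, with trended variance, no covariate and Benjamini-Hochberg adjustment over these genes. For single genes an exact permutation test over the 20 splits was added, two-sided. The fit was tested on simulated data.

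Groups and replicate numbers came from the sample titles; the file headers number the libraries differently, and the replicate block uses the titles. The members, lists and tests were chosen with earlier results of these data known. By rule, all members, the genes of each other list at an unadjusted p under 0.05 and its 3 highest, and the 5 most alike genes were named, but the 3 highest of the lists for other cell types are not printed in full. Depth was estimated from values under 0.3 FPKM, scaled with 4518 single-transcript genes of GENCODE M21 (GRCm38), and covers counting error only. Promoters came from RefSeq (GRCm38.p6). Alternatives were a pseudocount of 0.1, no filter, a filter at 5 FPKM, a trimmed-mean (TMM) factor, endothelial scaling, quantile normalization, a replicate block, no trended variance, loess corrections (span 0.3) for GC content and transcript length, and leaving out each library. Scaling to the endothelial markers without *Cdh5* was added after the data were seen.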

Additional observations from a re-analysis of the deposited data

How the results depend on the processing

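The median log2 fold change of the members stayed between −0.36 and −0.17 over 17 alternatives, and 0 members passed adjustment in any of them. The number of members at an unadjusted limma p under 0.05 was 2, all lower, against 3.11% of all genes in that direction. It was 3 (with *Pdgfrb*) without a filter (2.68% of all genes) and with quantile normalization (3.41%), 0 with endothelial scaling (1.11%), 1 with that scaling without *Cdh5* (2.06%), 0 with the correction for GC content (2.19%), 1 without the trended variance (2.80%) and 0 to 2 with a library left out (1.42% without WT 2 to 5.83% without KO 2). In either direction 5.88% of all genes were at this level, with 5.12% without a filter, 5.47% with endothelial scaling, 4.37% with that scaling without *Cdh5*, 6.51% with quantile normalization, 6.11% with the replicate block, 5.58% without the trended variance, 4.63% with the correction for GC content and 3.16% (without WT 2) to 13.1% (without KO 2) with a library left out. Of the 22 other pericyte genes 2 were at this level, 1 without the trended variance, 3 with either endothelial scaling, the replicate block or the correction for GC content, and 0 to 4 with a library left out. Of the 20 recruitment genes 1 was, with 3 without a filter, 2 with endothelial scaling, 2 with quantile normalization and 0 to 3 with a library left out. The causes were not tested. The members with every KO value below every WT value numbered 3 with the TMM factor, endothelial scaling, quantile normalization and the corrections for GC content and length (5.38%, 2.67%, 6.18%, 5.14% and 5.81% of all genes) and 4 with endothelial scaling without *Cdh5* (4.69%), alternatives chosen after the data were seen. Leaving out a library can only keep or raise this count, which was 3 without WT 1, WT 2, KO 2 or KO 3 (10.4%, 8.90%, 14.3% and 12.1% of all genes), 4 without KO 1 (9.31%) and 5 without WT 3 (11.4%), against 5.70% with all libraries. The fold change of *Higd1b* changed sign with endothelial scaling (0.10) and with the correction for GC content (0.036), and with a library left out it ranged from −0.33 to 0.21. With a library left out, *Abcc9* ranged from −0.414 to 0.029, *Mcam* from −0.032 to 0.265 and *Rgs5* from −0.006 to 0.39. With the replicate number as a block, the members at an unadjusted p under 0.05 were 0 and all genes 871 against 838. The deviations of same-numbered libraries correlated at 0.037, 0.027 and 0.002 over 14247 genes, and those of differently numbered libraries at −0.073 to 0.046. The labels give no pairing of the mice, and correlations over all genes with 3 libraries per group cannot decide whether there was one. Over all genes the 838 became 450 without WT 2, 510 without KO 1 and 1871 without KO 2. *Higd1b* and *Kcnj8* rested on the fewest fragments, about 99.5 and 260 in KO 2.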
